A study of Mus musculus with 8 samples.

Results

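Epithelial-to-mesenchymal transition (EMT) is the shift by which epithelial cells loosen their junctions and take on features of mesenchymal cells. The transcription factors Zeb1, Zeb2, Snai1, Snai2 and Twist1 are its best known regulators, and they repress Cdh1, which encodes the junction protein E-cadherin. Cdh2 encodes N-cadherin, Vim the intermediate filament vimentin and Fn1 the matrix protein fibronectin, which are commonly read as signs of a mesenchymal state. In pancreatic tumors the same genes are also used by fibroblasts, endothelial cells and macrophages, so a level measured over a whole tissue does not tell which cells made the RNA. These 9 genes were taken by their symbols from 27775 gene rows, and each symbol named 1 row in both count tables.

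The counts came from 2 pancreatic ductal adenocarcinomas of untreated KPC mice, 1 of medium size and 1 of large size, dissociated and captured as single cells on the 10x Genomics Chromium platform with 3′ v2 chemistry. In KPC mice Pdx-1-Cre switches on engineered alleles in cells of the pancreatic lineage, and both tumors come from this model. The labels list 4 technical replicates for each tumor, but their counts share 1 table, so a tumor is 1 sample and no difference between tumors has a replicate check. Neither the mice's age nor their sex was given in the sources used here. Values are therefore given with intervals that cover counting error only, and no p-value was computed.

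The medium tumor had 20301669 UMIs in 2812 cells, with a median of 5456.5 per cell. A UMI, or unique molecular identifier, stands for 1 captured mRNA molecule. The large tumor had 2239012 UMIs in 1533 cells, with a median of 1037, so its values are less precise, and 5 barcodes occurred in both tables. Cells were clustered for each tumor without the 9 genes, and clusters were named from marker lists that hold none of them. In the medium tumor, 7 clusters with 2105 cells (74.9%) were epithelial-like, with 7 to 9 of 10 epithelial markers such as Krt8 and Cldn7. Another 239 cells were macrophage-like and 39 endothelial-like. Clusters 8, 10, 11 and 12 stayed unnamed. In the large tumor, 1219 cells (79.5%) in 7 clusters were epithelial-like, 253 macrophage-like, 50 fibroblast-like and 11 endothelial-like.

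Some of these groups need a word before their values. Cluster 8 of the medium tumor (221 cells, led by Inhba, Bmp2 and Piezo2) passed the cluster rule for only 2 of 10 epithelial markers. However, 205 of its 221 cells (92.8%, exact binomial 95% interval 88.5 to 95.8) had epithelial as the best class by their own markers, and its fibroblast marker sum of 33.3 counts per 1000000 UMIs (CPM) lay within the 25.5 to 45.8 CPM of the epithelial-like clusters. Its macrophage marker sum of 501 CPM was above their 198 to 298 CPM. It is described beside them, under its number, and counted with the other cells unless said otherwise. Cluster 10 (Dcn, Upk3b) had 6 of 10 fibroblast and 6 of 6 mesothelial markers, and cluster 11 (Col1a1, Tagln) had 8 of 10 fibroblast and 5 of 7 smooth muscle and pericyte markers. Cluster 12 had both 9 of 10 epithelial and 8 of 11 macrophage markers.

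Cdh1 and the mesenchymal genes separated the epithelial-like cells from the rest of the medium tumor only in part. Cdh1 (chromosome 8 of GRCm38, 106603351 to 106670246) was at 262 CPM in the epithelial-like cells and 80.0 CPM in all other cells, a ratio of 3.27 (exact 95% interval 2.92 to 3.67). Vim (chromosome 2, 13573927 to 13582826) was at 732 CPM in the epithelial-like cells and 1448 CPM in the others, a ratio of 0.505 (0.490 to 0.521). Vim was therefore lower in the epithelial-like cells but far from absent. Of the 6 genes with at least 200 UMIs here, 1 (Cdh1) was at least 2-fold higher in the epithelial-like cells, where 7.29% of all genes were. Fn1, Zeb1, Zeb2 and Cdh2 were at least 2-fold lower, with ratios of 0.368, 0.380, 0.0593 and 0.379, where 7.45% of all genes were. The values of Cdh2 and Zeb1 rest on cluster 8, which held 227 of the 276 Cdh2 UMIs and 117 of the 174 Zeb1 UMIs of the other cells. With cluster 8 counted as epithelial-like, a choice made after its values were seen, Cdh2 had a ratio of 1.64 (1.23 to 2.24), which turns its direction. Zeb1 then had 0.834 (0.630 to 1.12), no longer past 2-fold, while Zeb2 had 0.0652, Fn1 0.365 and Vim 0.616. In the large tumor Cdh2 was also higher in the epithelial-like cells, from 79 and 4 UMIs, with a ratio of 2.83 (1.06 to 10.6). In the medium tumor Twist1, with fewer UMIs, had a ratio of 1.02 (0.614 to 1.79), and 1.60 (0.746 to 4.09) with cluster 8 counted, and in the large tumor 0.916 (0.354 to 3.01).

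Cdh1 was the steadiest of the 5 genes with at least 200 UMIs over the 7 epithelial-like clusters of the medium tumor. Its level was 356 CPM (95% Poisson interval 336 to 376) in cluster 1, which is led by the gastric genes Gkn1 and Gkn2, and 352 CPM (325 to 382) in cluster 7, led by Krt17 and Cldn4. It was 296 CPM (272 to 322) in cluster 4, 278 CPM (253 to 305) in cluster 2 and 275 CPM (248 to 304) in cluster 6. It was lowest in cluster 3, led by the cell cycle genes Ube2c, Birc5 and Top2a, at 177 CPM (163 to 191), and in cluster 5, at 152 CPM (138 to 167). The intervals of clusters 1 and 7 overlap, as do those of clusters 2, 4 and 6, and clusters 3 and 5 lie below all others. Cluster 8 was lower still, at 91.5 CPM (78.1 to 107). The highest epithelial-like cluster exceeded the lowest by 2.34 times. In cells thinned to 2500 UMIs each, 48.2% of the epithelial-like cells (46.0 to 50.3) had a Cdh1 UMI, against 5.02% (2.62 to 8.61) of the macrophage-like cells, with median depths of 5941 and 3511 UMIs before thinning.

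Outside the epithelial-like cells, Cdh1 was set beside the epithelial markers of the same cells, and the shares were close in some clusters only. In macrophage-like cluster 9 it was at 17.7 CPM (9.42 to 30.3), which is 6.76% of the epithelial-like level, and the summed epithelial markers were at 5.45% of theirs. The corresponding shares were 20.5% and 23.7% in cluster 10, 15.0% and 13.3% in cluster 11, and 37.7% and 34.6% in the endothelial-like cluster. Cdh1 had the larger share in macrophage-like cluster 13, with 22.3% from 11 UMIs against 4.89% for the markers, in cluster 12, with 87.7% and 64.2%, and in the macrophage-like cluster of the large tumor, with 18.8% from 6 UMIs and 4.62%. It had the smaller share in cluster 8, with 35.0% and 48.5%, and in the fibroblast-like cluster of the large tumor, with 9.04% from 1 UMI and 17.4%. The endothelial-like cluster of the large tumor had 0 Cdh1 UMIs, beside 5.81% for the markers. The part of other cells' RNA in these values was not tested.

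Vim varied far more than Cdh1 among the same epithelial-like clusters. It was at 1607 CPM (1559 to 1656) in cluster 5, led by Yap1 and Birc2, 1087 CPM (1053 to 1123) in cycling cluster 3 and 972 CPM (928 to 1017) in cluster 4, led by Mcpt8, Cldn6 and Hmga2. It was at 383 CPM in cluster 1, 251 CPM in cluster 7 and 76.1 CPM (63.5 to 90.6) in cluster 2. Cluster 6, led by Lcn2 and Sftpd, was lowest at 50.3 CPM (39.1 to 63.7). No 2 of these 7 intervals overlap except those of clusters 2 and 6, which touch. Cluster 8 was at 1596 CPM (1539 to 1656), level with cluster 5, and both were above the 1229 CPM of macrophage-like cluster 9. The endothelial-like cluster was the highest, at 1992 CPM (1818 to 2177).

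**Figure D1:**
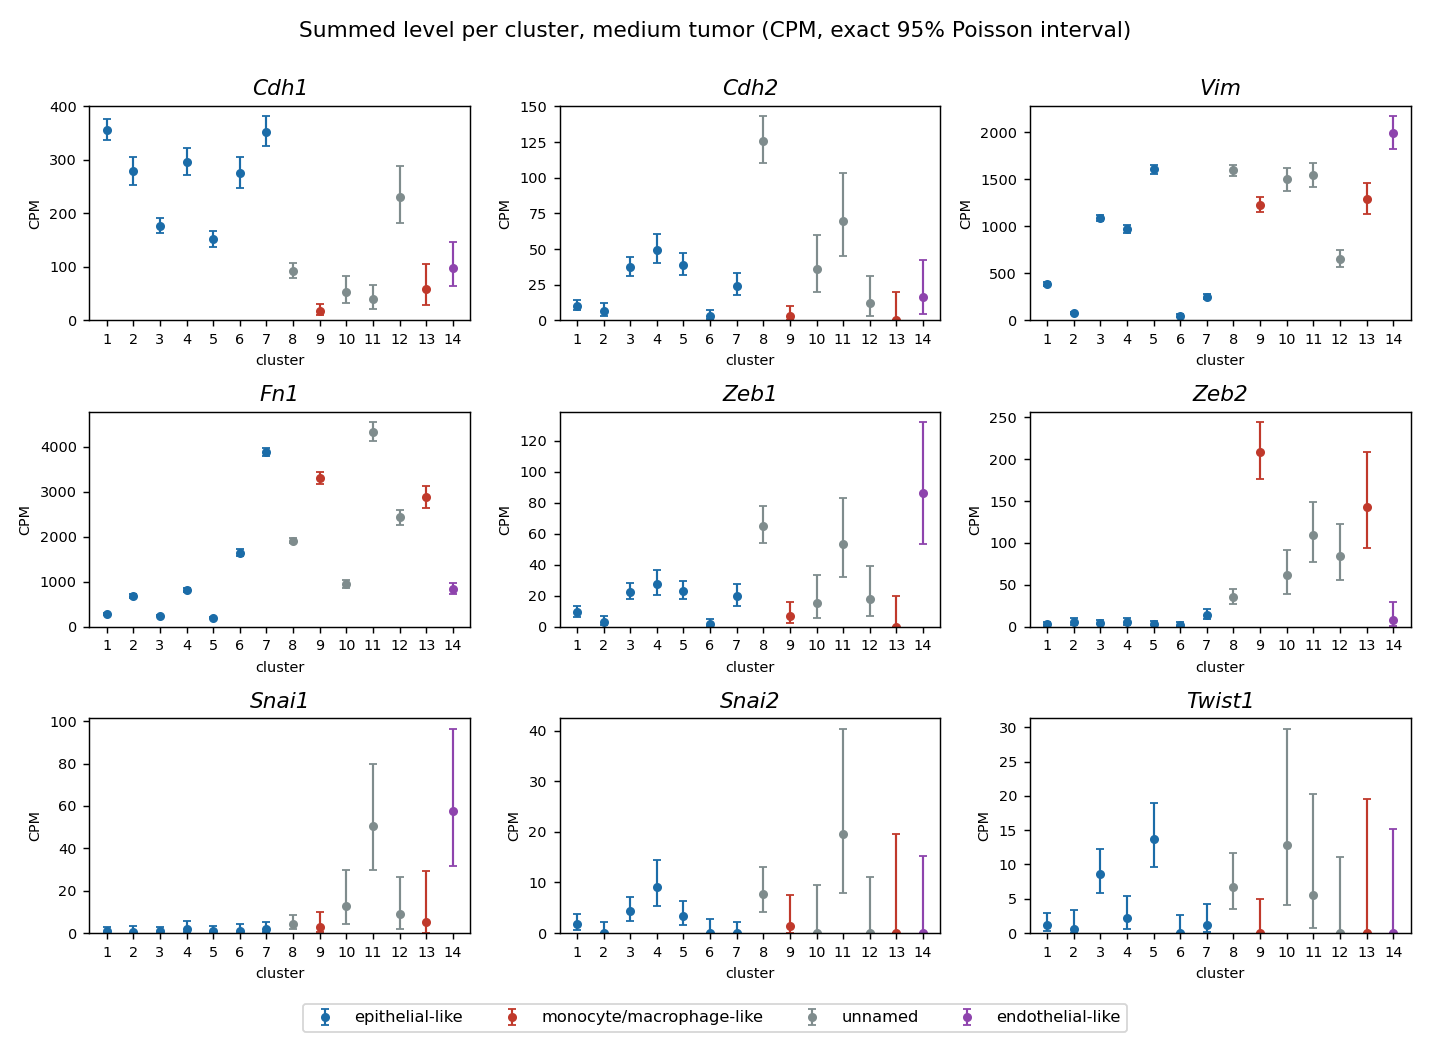
Summed level of each gene (CPM, vertical axis, one scale per gene) in the 14 clusters of the medium tumor (horizontal axis), with exact 95% Poisson intervals and colors for the class of the cluster. Cdh1 lies between 152 and 356 CPM in the 7 epithelial-like clusters, while Vim runs from 50.3 to 1607 CPM, Zeb2 is highest in the macrophage-like clusters and Cdh2 in cluster 8.

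The low Vim of clusters 2 and 6 can be set beside the RNA of macrophages in the same libraries. The macrophage marker sum of cluster 6 was 0.719% of that of cluster 9, and its Vim was 4.09% of the level there. In cluster 2 these shares were 0.646% and 6.20%. In cluster 5 they were 0.617% and 131%, so the macrophage markers did not differ with Vim between these clusters. At the level of single cells thinned to 2500 UMIs each, 91.8% of the cells of cluster 6 and 88.0% of those of cluster 2 had no Vim UMI. In cluster 5 the share without was 14.6%, and the median cell had 3 Vim UMIs (quartiles 2 and 6).

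Fn1 had a different order. It was at 3879 CPM (3785 to 3974) in cluster 7 and 1645 CPM (1578 to 1714) in cluster 6, and these 2 clusters were low in Vim. It was also among the 10 leading genes of cluster 7, which is thus partly described by it. Cluster 4 had 812 CPM, cluster 2 679 CPM, cluster 1 282 CPM and cluster 3 245 CPM. Cluster 5, highest in Vim, was lowest in Fn1, with an interval of 183 to 218 CPM. Over the 7 clusters Spearman's rho between Vim and Fn1 was -0.75, given as a description of 7 groups of cells from 1 library preparation. Cluster 8 was high in both, with 1913 CPM of Fn1. Fibronectin is also a product of other cells, and cluster 11 (4326 CPM) and macrophage-like cluster 9 (3296 CPM) were among the highest of the tumor.

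Of the 5 genes with at least 200 UMIs over the epithelial-like clusters of the medium tumor, Vim and Fn1 differed at least 5-fold between the highest and the lowest cluster, with 10 CPM added to both levels. Their ratios were 26.8 and 18.5. Of all genes tested, 5.29% differed as much. Cdh2 was just outside this limit at 4.60, with Zeb1 at 3.29 and Cdh1 at 2.26.

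Cdh2 had the order of Vim more closely than that of Fn1. N-cadherin RNA was at 49.5 CPM (39.9 to 60.6) in cluster 4, 39.1 CPM (32.0 to 47.3) in cluster 5 and 37.5 CPM (31.3 to 44.5) in cluster 3, and these 3 intervals overlap. It was at 24.4 CPM in cluster 7 and 10.1 CPM in cluster 1. Clusters 2 and 6 were lowest at 6.59 and 2.92 CPM, the latter from 4 UMIs. Cluster 8 had 126 CPM (110 to 143), the highest level of the tumor, above the 70.0 CPM (45.3 to 103) of cluster 11. Macrophage-like cells thinned to 2500 UMIs had Cdh2 in 0 of 239 cells, which allows a share of up to 1.26% of cells with a UMI, and 110 of 2105 epithelial-like cells had it (5.23%, 4.31 to 6.26). Spearman's rho between Cdh2 and Vim over the 7 epithelial-like clusters was 0.857. High Cdh2 did not go with low Cdh1 throughout, since cluster 4, with the most Cdh2 of the 7, had 296 CPM of Cdh1 and cluster 5 had 152 CPM.

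The zinc finger factor Zeb1 was low but had a clear spread. It was at 27.7 CPM (20.7 to 36.3) in cluster 4, 23.1 CPM (17.7 to 29.6) in cluster 5, 22.3 CPM (17.6 to 27.9) in cluster 3 and 19.6 CPM (13.5 to 27.6) in cluster 7, and these 4 intervals overlap. Cluster 1 had 9.50 CPM (6.54 to 13.3). Clusters 2 and 6 had 5 and 2 UMIs in all, or 3.00 and 1.46 CPM. Cluster 8 had 64.9 CPM (53.7 to 77.8), an interval that overlaps those of the endothelial-like cluster (86.2 CPM, 53.4 to 132) and cluster 11 (53.2 CPM, 32.0 to 83.1). At 2500 UMIs, the share of cells with Zeb1 was 3.56% among the epithelial-like (2.81 to 4.45) and 1.26% among the macrophage-like cells (0.260 to 3.62).

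Zeb2, the paralog of Zeb1, was mainly seen outside the epithelial-like cells. Macrophage-like clusters 9 and 13 had 208 CPM (177 to 244) and 143 CPM (94.2 to 208), cluster 11 had 109 CPM and cluster 10 61.3 CPM. The epithelial-like clusters had between 1.46 CPM in cluster 6 and 13.7 CPM (8.68 to 20.5) in cluster 7. In cluster 7 Zeb2 was thus 6.57% of its level in cluster 9, where the macrophage marker sum was 0.903%. Cluster 8 had 34.9 CPM (26.8 to 44.7), which is 16.8% of the level in cluster 9 beside 1.52% for the macrophage markers.

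Snai1, Snai2 and Twist1 were rare in the epithelial-like cells. Snai1 had 1 to 4 UMIs in each of the 7 clusters, and at most 2.13 CPM. At 2500 UMIs it was seen in 0.333% of epithelial-like cells (0.134 to 0.684) and 1.26% of macrophage-like cells (0.260 to 3.62), and these intervals overlap. Where the UMIs of the epithelial-like cells came from was not tested. It was at 57.5 CPM (31.4 to 96.5) in the endothelial-like cluster and 50.4 CPM (29.9 to 79.6) in cluster 11. Snai2 was highest in cluster 4, at 9.04 CPM (5.27 to 14.5), followed by cluster 3 at 4.29 CPM and cluster 5 at 3.35 CPM. It had 0 UMIs in clusters 2, 6 and 7, which allows up to 1.80, 2.19 and 1.79 CPM. Over all epithelial-like cells the share with Snai2 was 0.570% (0.295 to 0.994), against 0.418% (0.0106 to 2.31) in macrophage-like cells, so no difference was detectable at this depth.

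Twist1, a basic helix-loop-helix factor, was mainly found in 2 of the clusters high in Vim. It was at 13.8 CPM (9.70 to 19.0) in cluster 5 and 8.59 CPM (5.79 to 12.3) in cluster 3, and between 0 and 2.13 CPM in the other 5 epithelial-like clusters. Cluster 8 had 6.65 CPM (3.44 to 11.6). At 2500 UMIs, 16 epithelial-like cells had Twist1 (0.760%), against 0 of 239 macrophage-like cells, which allows a share of up to 1.26% of cells with a UMI and sets no limit on cells that express the gene. Its order over the 7 clusters was nearly that of Vim, with a rho of 0.964.

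Counted together, a UMI of at least 1 of the 5 factors was present at 2500 UMIs in 125 epithelial-like cells (5.94%, 4.97 to 7.03), and in 16.7% without thinning. The share was 11.2% in cluster 4, 9.88% in cluster 5, 9.42% in cluster 7 and 7.43% in cluster 3. In clusters 1, 2 and 6 it was 3.62%, 2.01% and 0.433%. Cluster 8 stood above them with 51 of 221 cells (23.1%, 17.7 to 29.2). Of the 239 macrophage-like cells, 87 had any factor (36.4%) and 83 had Zeb2.

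Cdh1 and Vim were next examined in the same cells. After thinning to 2500 UMIs, 593 epithelial-like cells of the medium tumor (28.2%) had Cdh1 without Vim, 572 (27.2%) had Vim without Cdh1, 421 (20%, 18.3 to 21.8) had both and 519 (24.7%) had neither. The share with both was 31.7% in cluster 4, 28.4% in cluster 3, 25.7% in cluster 5 and 23.0% in cluster 1. It was 17.9% in cluster 7, 5.35% in cluster 2 and 3.03% in cluster 6, and 14.9% in cluster 8. A cell without a UMI may still hold the RNA, and without thinning 44.1% of the cells had both.

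The 421 cells with both genes were fewer than the 478 that the shares of cells with Cdh1 and with Vim would give if the genes were detected independently. The ratio of observed to expected was 0.880 (0.806 to 0.958). When the expected number was formed within each cluster and summed, it was 448 and the ratio 0.939. The shortfall was thus smaller inside clusters. Without thinning the ratio was 1.00, so the direction rests on thinning. Cells with both genes had a median of 7015 UMIs and cells with neither 4875, and the part of depth was not tested.

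**Figure D2:**
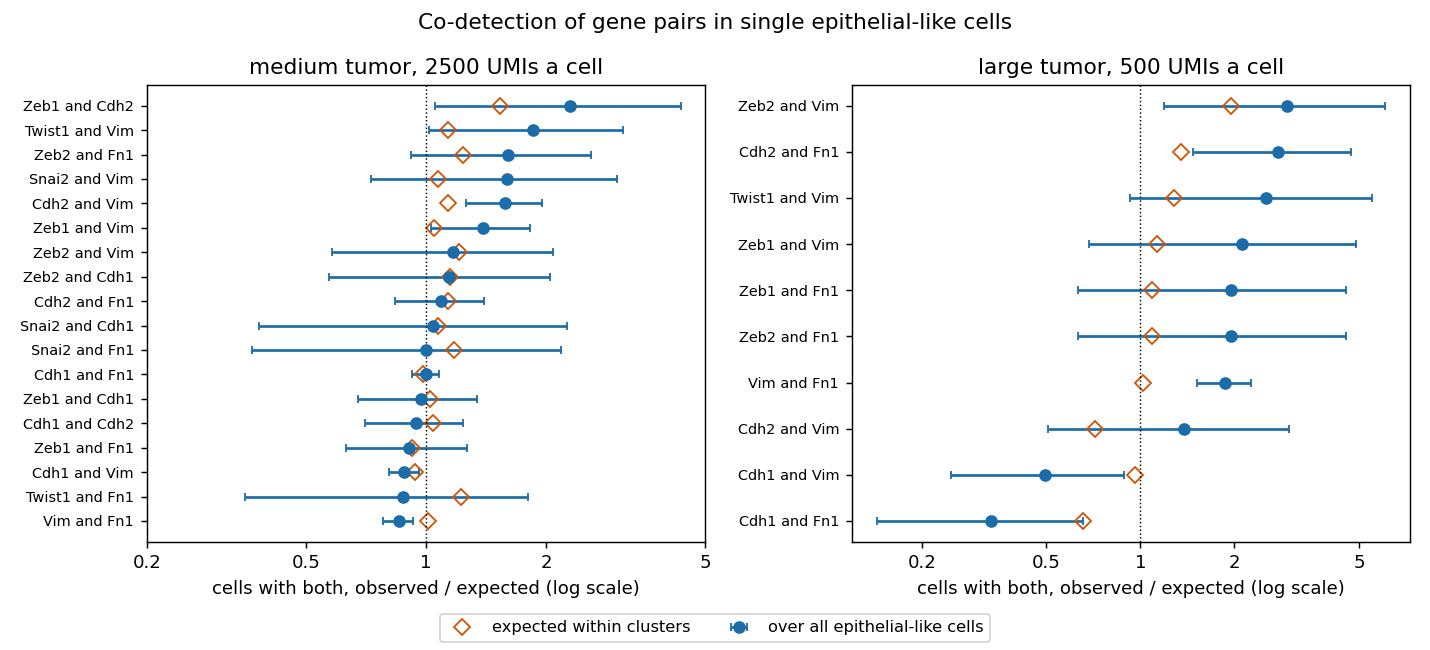
Observed over expected number of cells with both genes of a pair (horizontal axis, log scale) among epithelial-like cells of the medium (left, 2500 UMIs a cell) and large tumor (right, 500 UMIs a cell), for pairs seen together in at least 5 cells. Blue points with exact binomial intervals use the shares over all cells and orange diamonds those within each cluster, and the diamonds of most pairs lie nearer to 1, as for Cdh2 and Vim in the medium tumor with 1.58 and 1.14.

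Some pairs among Vim, Cdh2 and the factors were seen together more often than expected. Cdh2 and Vim were together in 82 cells of the medium tumor against 51.9 expected, a ratio of 1.58 (1.26 to 1.95). Zeb1 and Vim were together in 49 cells, a ratio of 1.38 (1.03 to 1.82). Twist1 was seen with Vim in 14 of its 16 cells, a ratio of 1.85 (1.02 to 3.11), and Zeb1 with Cdh2 in 9 cells, a ratio of 2.30 (1.05 to 4.35). With the expected number formed within clusters, these ratios were 1.14, 1.05, 1.13 and 1.53. The joint detection in single cells was thus nearer to that expected once the cluster was given. Zeb1 and Cdh1 were together in 35 cells, a ratio of 0.969 with an interval from 0.676 to 1.34. Twist1 and Cdh1 were together in 4 cells, a ratio of 0.519 (0.141 to 1.33). Twist1 and Cdh2 were together in 4 cells, a ratio of 4.78 (1.30 to 12.2) and 2.74 within clusters. Zeb1 and Twist1 had 3.51 (0.425 to 12.7), Zeb2 and Fn1 1.60 (0.916 to 2.59) and Snai2 and Vim 1.59 (0.728 to 3.01), with intervals that span 1. Some pairs were below 1 with intervals that span it, as Zeb1 and Fn1 at 0.907 (0.630 to 1.26) and Twist1 and Fn1 at 0.875 (0.352 to 1.80), and Zeb1 and Zeb2 were together in 0 cells against 0.713 expected. With cells thinned to 1000 UMIs instead, the intervals of Twist1 and Vim (0.986 to 4.49) and Zeb1 and Cdh2 (0.716 to 10.1) spanned 1. Those of Cdh2 and Vim (1.27 to 2.65) and Zeb1 and Vim (1.03 to 2.65) did not, and Twist1 and Cdh2 were together in 0 cells.

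Vim and Fn1 were together in 424 cells against 496 expected, a ratio of 0.854 (0.783 to 0.930), and within clusters the ratio was 1.01. Cdh1 and Fn1 had a ratio of 0.999 (0.923 to 1.08). Cluster 8 was also added to the epithelial-like cells, a choice made after its values were seen. The ratio of Vim and Fn1 was then 0.939 (0.875 to 1.01), an interval that spans 1, and that of Twist1 and Cdh2 was 2.85 (0.776 to 7.28), which spans it as well. Zeb1 and Cdh2 had 2.43 (1.44 to 3.84) from 18 cells. Cdh2 and Fn1 then had 1.25 (1.03 to 1.49) and Zeb2 and Fn1 1.63 (1.14 to 2.26), where without cluster 8 their intervals spanned 1, and within clusters they had 1.07 and 1.14.

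The epithelial-like cells were then ordered in 4 classes by their Vim UMIs at 2500, and the level of the other genes was taken from all UMIs. Cdh1 was at 318 CPM (305 to 331) in the 1112 cells without Vim, 256 CPM in the 538 cells with 1 to 2 UMIs, 196 CPM in the 309 cells with 3 to 5 and 143 CPM (124 to 163) in the 146 cells with 6 or more. These 4 intervals do not overlap. The classes drew on different clusters, since 91.8% of cluster 6 and 88.0% of cluster 2 had no Vim UMI, while 27.7% of cluster 5, lowest in Cdh1, had 6 or more. When each class was set against the cells without Vim and pooled within clusters, a step added after the data were seen, Cdh1 had ratios of 0.848, 0.711 and 0.572, where they were 0.806, 0.617 and 0.449 over all cells.

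Cdh2 was at 11.5 CPM (9.21 to 14.3) in the cells without Vim and at 33.5, 41.1 and 41.1 CPM in the other classes, with overlapping intervals among the last 3. Zeb1 was at 9.21 CPM (7.14 to 11.7) without Vim and at 20.4, 21.4 and 28.0 CPM in the others. Twist1 was at 1.10 CPM (0.475 to 2.17) and then at 7.58, 7.13 and 9.78 CPM. Within clusters, the class highest in Vim had ratios of 1.62 for Cdh2, 1.57 for Zeb1 and 1.85 for Twist1 to the cells without it, against 3.56, 3.04 and 8.89 over all cells. Fn1 was at 1103 CPM without Vim and at 889, 447 and 342 CPM in the others, and its within-cluster ratios were 1.25, 0.965 and 0.978. The median depth was 5183, 6305.5, 7998 and 8193.5 UMIs in the 4 classes, and its part in these differences was not tested.

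**Figure D3:**
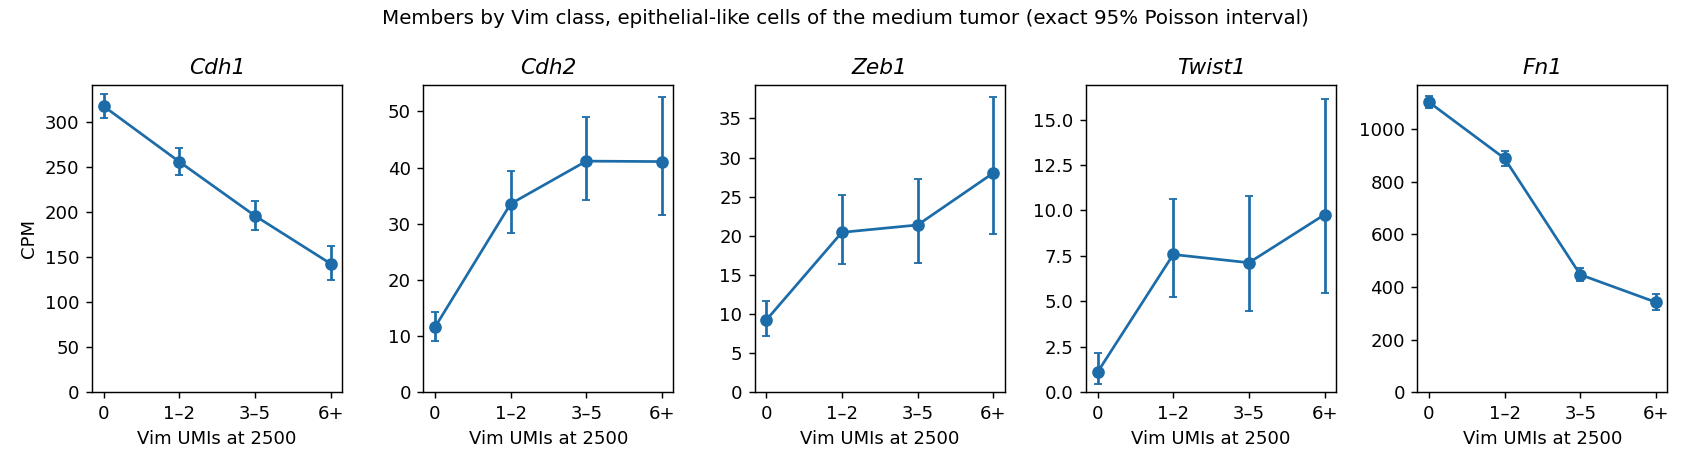
Level of Cdh1, Cdh2, Zeb1, Twist1 and Fn1 (CPM, vertical axes from 0) in epithelial-like cells of the medium tumor in 4 classes by Vim UMIs after thinning to 2500 (horizontal axis), with exact 95% Poisson intervals. Cdh1 is lower in each class, from 318 to 143 CPM, while Cdh2 is at 11.5 CPM in cells without Vim and between 33.5 and 41.1 CPM in the others.

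The 572 cells with Vim only and the 593 with Cdh1 only were compared over all genes with at least 50 UMIs in both together. Among the other 7 genes, Zeb1 and Cdh2 were at least 2-fold higher in the Vim-only cells and Fn1 at least 2-fold lower. Zeb1 was at 20.4 and 9.11 CPM, a ratio of 2.24 (1.52 to 3.36), and Cdh2 at 39.7 and 10.9 CPM, a ratio of 3.65 (2.62 to 5.19). Of all genes, 3.69% were at least 2-fold higher and 7.08% at least 2-fold lower. Fn1 was at 513 and 1188 CPM, a ratio of 0.431 (0.411 to 0.452). Twist1, with 49 UMIs just below the minimum, was at 8.34 and 1.01 CPM. Zeb2 had 20 and 17 UMIs, a ratio of 0.862 (0.429 to 1.75). The 421 cells with both genes were at 24.6 CPM of Zeb1, 34.1 CPM of Cdh2 and 6.98 CPM of Twist1, close to the Vim-only cells, and at 841 CPM of Fn1, between the other groups.

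When the same ratios were formed within clusters and pooled, Zeb1 had 1.29, Cdh2 2.07, Twist1 2.62 and Fn1 1.06. Over all cells, the ratio of Zeb1 was 3.42 with cluster 8 counted as epithelial-like and 4.33 when cells were classed without thinning. The difference in Fn1 was thus one between clusters, while Cdh2 was also higher inside them, by pooled ratios that have no interval. Vim-only cells had a median of 7256 UMIs and Cdh1-only cells 5372. The macrophage marker sum was 206 CPM in the Vim-only and 270.1 CPM in the Cdh1-only cells, and the fibroblast marker sum 35.2 and 51.6 CPM. The endothelial marker sum was higher in the Vim-only cells, at 71.2 and 51.1 CPM, against 5478 CPM in the endothelial-like cluster, with 172 of 384 and 111 of 202 UMIs from Flt1. Its part in the result was not tested. The epithelial marker sum was 11061 and 13099.8 CPM.

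Genes around this program were described from lists. Of the epithelial-state regulators, which maintain epithelial splicing and junction genes, 4 of 7 with enough UMIs were at least 2-fold lower in the Vim-only cells and 0 higher, where 7.08% and 3.69% of all genes were. The list's median log2 ratio was -1.10, against -0.10 over all genes. Ovol1, a zinc finger repressor of EMT factors, was at 2.60 CPM in Vim-only and 27.8 CPM in Cdh1-only cells, a ratio of 0.0933 (0.0494 to 0.163). Esrp1, an epithelial splicing factor, had a ratio of 0.188 (0.129 to 0.269) and Grhl2, an activator of junction genes, 0.220 (0.105 to 0.428). Within clusters the ratios were 0.432, 0.550 and 0.675, and the median ratio of the 7 regulators was 0.816.

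Several junction genes were lower as well. Of the tight junction genes 5 of 9 were at least 2-fold lower and 0 higher, where 7.08% and 3.69% of all genes were, with a median log2 ratio of -1.19, and Ocln (occludin) had 10.8 and 49.1 CPM, a ratio of 0.219 (0.161 to 0.295). Marveld2, the tricellulin gene, had 0.376 and Tjp3 0.390. Of the adherens junction and desmosome genes 4 of 10 were lower and 0 higher, beside the same shares of all genes, with a median of -0.84. Among them Pkp3 had a ratio of 0.411, Dsg2 0.463 and Ctnnb1, the beta-catenin gene whose protein binds E-cadherin, 0.479 (0.445 to 0.515). Within clusters, Ocln had 0.481, Marveld2 0.582 and Tjp3 0.614, and Pkp3, Dsg2 and Ctnnb1 had 0.842, 0.788 and 0.777, so of these 6 only Ocln stayed past 2-fold. The median ratio within clusters was 0.688 over the 9 tight junction genes and 0.853 over the 10 adherens junction and desmosome genes.

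The mesenchymal list was split. Of its 15 genes with enough UMIs, 5 were at least 2-fold higher in the Vim-only cells and 0 lower, where 3.69% and 7.08% of all genes were, and the median log2 ratio was 0.16. Loxl2, a lysyl oxidase that cross-links collagen, was at 18.0 and 3.54 CPM, a ratio of 5.08 (2.89 to 9.64). Axl, a receptor tyrosine kinase, was at 79.2 and 18.5 CPM, a ratio of 4.29 (3.34 to 5.57), and Lgals1, the galectin-1 gene, at 3148 and 769 CPM, a ratio of 4.09 (3.94 to 4.26). Within clusters these were 1.94, 3.15 and 2.31, and the median ratio of the 15 genes was 1.15. The tenascin gene Tnc, named after its values were seen, had 2.22 within clusters and 0.780 over all cells.

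Of the other EMT transcription factors 1 of 7 was at least 2-fold higher, where 3.69% of all genes were. This was the homeobox gene Prrx2, with 111 and 47.6 CPM and a ratio of 2.34 (1.99 to 2.78). Hmga2, a chromatin protein, had 1.72 (1.53 to 1.93) and Foxc1 1.60 (0.864 to 3.10), and the median log2 ratio of the list was 0.13. Within clusters Prrx2 had 1.68, short of 2-fold, Hmga2 1.56 and Foxc1 2.67, the last from 35 and 16 UMIs. Of the other cadherins, 3 had enough UMIs, 1 of them higher and 1 lower, beside the same shares of all genes. Cdh5 was higher, at 9.46 and 2.53 CPM (ratio 3.74, 1.88 to 8.26), Cdh17 lower, at 23.5 and 64.7 CPM (ratio 0.364, 0.292 to 0.452), and Cdh13 had a ratio of 0.688. Within clusters they had 2.78, 0.577 and 0.960, so Cdh17 was no longer past 2-fold.

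In the large tumor Cdh1 and Vim had nearly opposite orders in clusters 1 and 3 to 7. Cluster 1, led by Ggct and Ramp1, had 1670.3 CPM of Vim (1550 to 1798) and 39.8 CPM of Cdh1 (23.2 to 63.8). Cycling cluster 5 had 1070.5 CPM of Vim and 115 CPM of Cdh1 (89.9 to 145), and cluster 3 had 352 CPM of Vim and 176 CPM of Cdh1 (125 to 241). Cluster 7, led by Gkn2 and Tff1, had 149.6 and 246 CPM (193 to 309). Cluster 4, with the intestinal genes Guca2b and Fabp1, had 56.3 CPM of Vim and 333 CPM of Cdh1 (257 to 424), and cluster 6, with Tff3 and Muc2, 16.7 CPM from 3 UMIs and 290.3 CPM (217 to 381). The Cdh1 intervals of clusters 4, 6 and 7 overlap, and cluster 1 lies below all 5 others. Cluster 9, with 17 cells and a Cdh1 level of 0, was outside this order. With it, Spearman's rho between Cdh1 and Vim over the 7 epithelial-like clusters was -0.607, where it was -0.393 in the medium tumor.

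**Figure D4:**
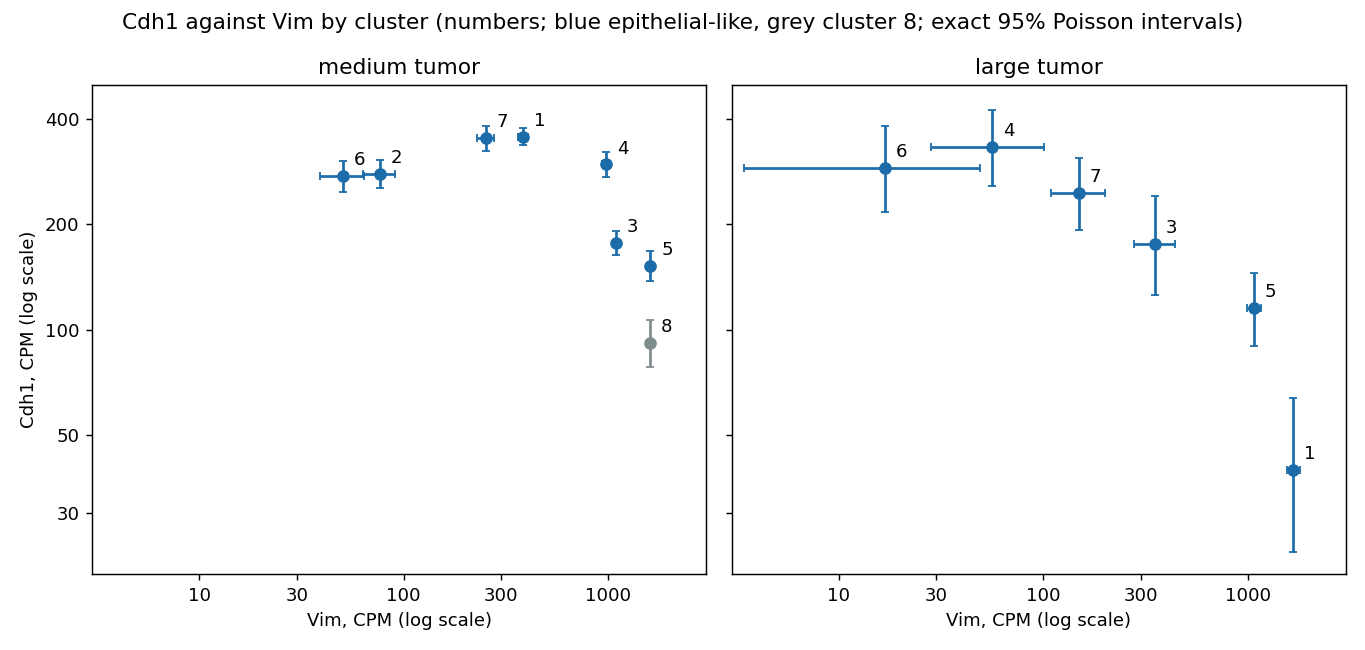
Cdh1 (vertical axis) against Vim (horizontal axis), both in CPM on log scales, by epithelial-like cluster of the medium (left) and large tumor (right), with exact 95% Poisson intervals and cluster 8 of the medium tumor in grey. In the medium tumor, clusters 1, 2, 6 and 7, at 383 CPM of Vim or less, have 275 CPM of Cdh1 or more. Cluster 4, at 972 CPM of Vim, also has 296 CPM of Cdh1. The lowest Cdh1 plotted for each tumor, 91.5 and 39.8 CPM, stands at 1596 and 1670.3 CPM of Vim. Cluster 9 of the large tumor (17 cells, 0 Cdh1 UMIs) is left out.

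Cluster 1 of the large tumor passed the naming rule with 3 of 10 epithelial markers, and 69.2% of its 263 cells (63.2 to 74.7) were epithelial by their own markers. Its fibroblast and macrophage marker sums were 23.4 and 180.4 CPM, within the range of the other epithelial-like clusters. Its endothelial marker sum of 134 CPM was above their 0 to 66.5 CPM, with 5758 CPM in the endothelial-like cluster, and 52 of its 57 UMIs were of Flt1, while Cdh5, Kdr, Plvap, Emcn and Cldn5 had 0. Its smooth muscle and pericyte sum of 21.1 CPM, from 9 UMIs, was above their 0 to 9.03 CPM. The part of the smooth muscle markers in its levels was not tested. It was the highest epithelial-like cluster of this tumor for Vim, Fn1 (2464 CPM), Cdh2 (93.7 CPM, 66.9 to 128), Zeb1 (46.9 CPM, 28.6 to 72.4), Zeb2 (39.8 CPM, 23.2 to 63.8) and Twist1 (35.1 CPM, 19.7 to 58.0). Cluster 8 of the medium tumor likewise exceeded the epithelial-like clusters of its own tumor for Cdh2, Zeb1 and Zeb2. Cycling cluster 5 of the large tumor had 53.5 CPM of Cdh2 (36.8 to 75.2), 19.5 CPM of Zeb1 and 17.8 CPM of Twist1. Clusters 4 and 6 had 0 UMIs of Cdh2 and Twist1, which allows up to 15.4 and 16.7 CPM.

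**Figure D5:**
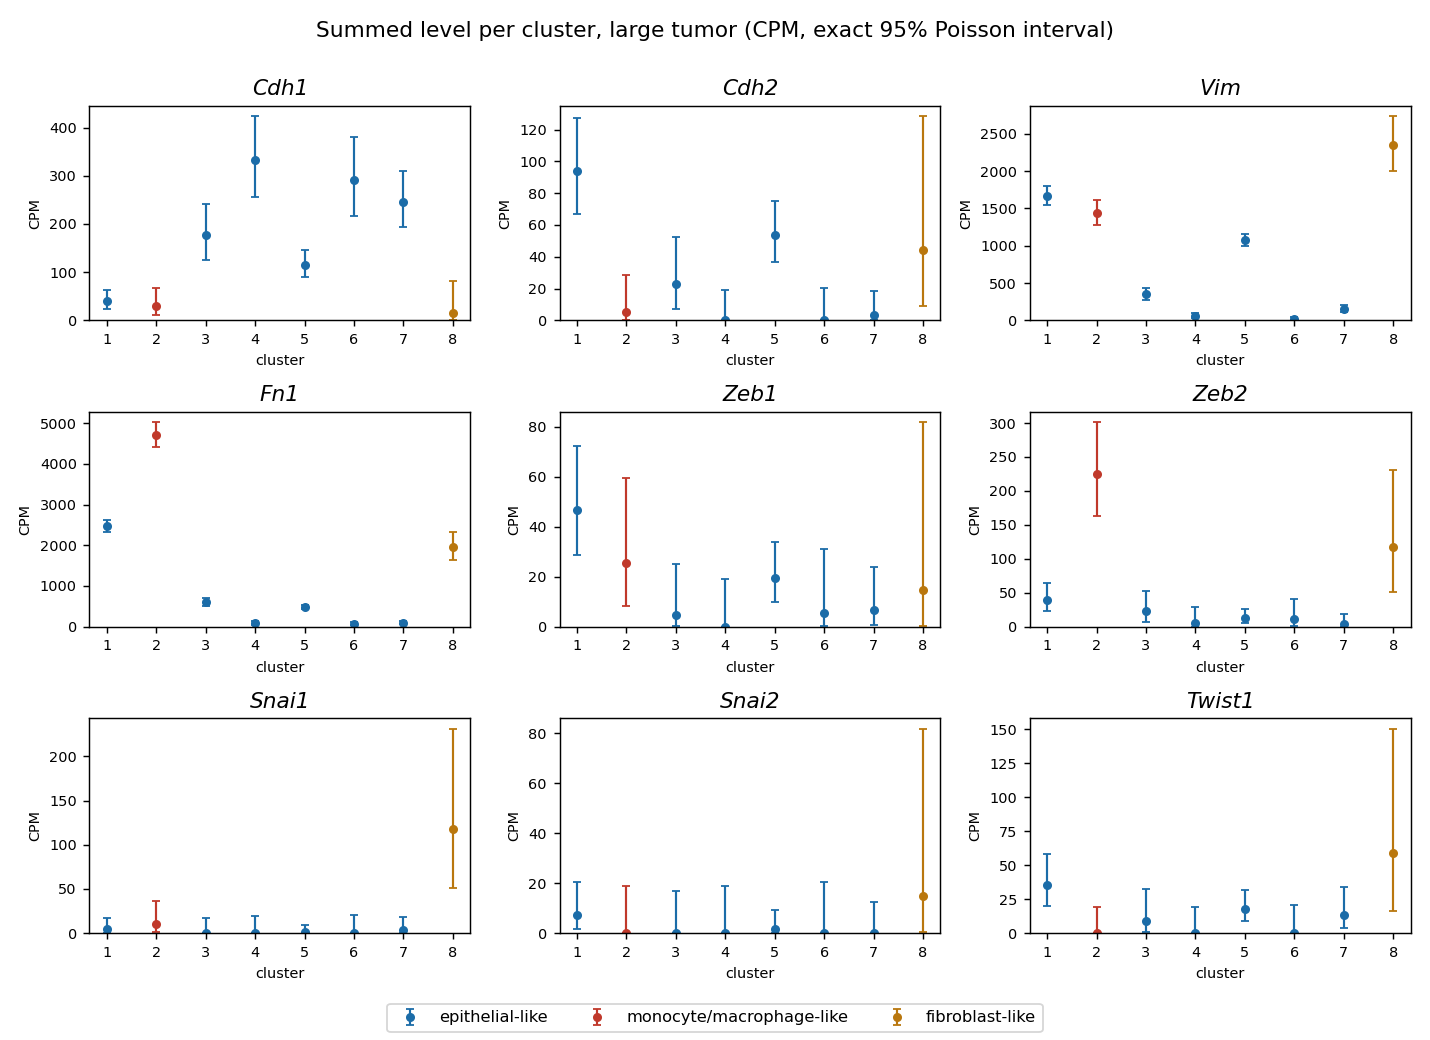
Summed level of each gene (CPM, vertical axis, one scale per gene) in clusters 1 to 8 of the large tumor (horizontal axis), with exact 95% Poisson intervals; clusters 9 and 10, of 17 and 11 cells, are left out. Vim, Cdh2, Zeb1 and Twist1 are highest among the epithelial-like clusters in cluster 1, where Cdh1 is lowest at 39.8 CPM, and Zeb2 is highest in macrophage-like cluster 2 at 224 CPM.

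Of the 3 genes with at least 200 UMIs over the epithelial-like clusters of the large tumor, Cdh1, Vim and Fn1, all 3 differed at least 5-fold between the highest and lowest cluster, where 34.1% of all genes did. For Cdh1 the lowest was cluster 9, with 17 cells. Without it, Cdh1 ranged over 8.36 times between clusters 4 and 1. Outside the epithelial-like cells, Zeb2 was at 224 CPM (163 to 301) in macrophage-like cells and Snai1 at 117 CPM (50.7 to 231) in fibroblast-like cells.

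At 500 UMIs per cell, Cdh1 and Vim were together in 11 of 1219 epithelial-like cells of the large tumor against 22.1 expected, a ratio of 0.497 (0.248 to 0.886), and 0.959 within clusters. In the medium tumor at the same depth the ratio was 0.816 (0.592 to 1.09), an interval that spans 1. There 2.04% of the epithelial-like cells had both, against 0.902% in the large tumor. Vim and Fn1 went together here, in 96 cells against 51.6 expected, a ratio of 1.86 (1.52 to 2.25) and 1.02 within clusters. Cdh1 and Fn1 were together in 8 cells, a ratio of 0.334 (0.144 to 0.655) and 0.657 within clusters, where it was 0.999 (0.777 to 1.26) in the medium tumor at the same depth. Over the 7 epithelial-like clusters, of which cluster 9 has 17 cells, the rho of Vim and Fn1 was 0.857, where it was -0.75 in the medium tumor. The orders of Twist1 and Cdh2 were near that of Vim in both tumors, with rho of 0.964 and 0.927 for Twist1 and 0.857 and 0.964 for Cdh2. Any of the 5 factors was detected at 500 UMIs in 3.20% (2.28 to 4.35) of these cells in the large and 1.28% (0.847 to 1.86) in the medium tumor, with 13.4% and 8.79% in the macrophage-like cells.

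The Vim-only and Cdh1-only cells of the large tumor, 230 and 101 cells at 500 UMIs, gave few UMIs of the rarer genes. Fn1 was the only one of the 7 with at least 50 UMIs, at 1269 and 391 CPM, a ratio of 3.25 (2.46 to 4.37), and 0.938 within clusters. It was at least 2-fold higher, as were 11.4% of all genes, while 7.05% were at least 2-fold lower. Zeb1 had 18 and 0 UMIs. Of the genes named above, Axl had 67 UMIs and 1 UMI, Lgals1 a ratio of 7.76 (5.32 to 11.8) and Prrx2 3.68 (1.99 to 7.54). Cdh2 had 28 and 5 UMIs, a ratio of 1.61 (0.612 to 5.33) and 0.386 within clusters, and Twist1 13 and 2 UMIs, a ratio of 1.86 (0.422 to 17.0) and 0.339 within clusters. The within-cluster values of both lay on the other side of 1 than in the medium tumor. They rest on these few UMIs and have no interval, so no difference between the tumors is read from them. Cdh13 had 20 UMIs and 1 UMI, where its ratio in the medium tumor was 0.688. The macrophage marker sum was 177 CPM in the Vim-only and 123 CPM in the Cdh1-only cells, while the fibroblast marker sum was 22.8 and 109 CPM and the epithelial marker sum 3465 and 5163 CPM. The median depth was 1631.5 and 1045 UMIs, and the part of depth and of these markers in the ratios was not tested. The endothelial marker sum was 85.2 and 28.96 CPM, and 39 of its 41 UMIs in the Vim-only cells were of Flt1. Pecam1, Cdh5, Kdr, Plvap, Emcn and Cldn5 had 0 UMIs there.

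Of the lists in the large tumor, 4 of 6 other EMT transcription factors with enough UMIs were at least 2-fold higher in the Vim-only cells and 0 lower, where 11.4% and 7.05% of all genes were. The median log2 ratio of this list was 1.10, against 0.11 over all genes. Beside Prrx2 these were Hmga2 with 4.24 (2.17 to 9.48), Sox11 with 2.33 (1.16 to 5.29) and Sox4 with 2.28 (1.35 to 4.11), the last 2 named after their values were seen, where in the medium tumor Sox4 had 0.904 (0.833 to 0.981) and Sox11 0.902 (0.767 to 1.06). Within clusters of the large tumor Prrx2 had 1.89, Hmga2 1.02, Sox11 0.885 and Sox4 1.12, all short of 2-fold, and the median ratio of the 6 was 0.952. Of the mesenchymal list 5 of 9 were higher and 0 lower, with a median of 1.79. Within clusters the median ratio of these 9 was 1.22, with 2.65 for Lgals1. Of the adherens junction and desmosome genes 1 of 5 was lower, with a median of -0.76, and within clusters the median ratio of the 5 was 0.986. The epithelial-state regulators, the tight junction genes and the other cadherins had 1 gene each with enough UMIs. These were Klf4 with a ratio of 0.416, Crb3 with 0.209 and Cdh17 with 0.137 (0.0773 to 0.235), the first 2 named after their values were seen, and within clusters they had 0.662, 0.407 and 0.658.

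Between the tumors, none of the 5 genes with at least 200 UMIs differed 2-fold in the epithelial-like cells. Vim was at 772 CPM in the large and 732 CPM in the medium tumor, a ratio of 1.055 (0.999 to 1.11), and Fn1 had a ratio of 0.927 (0.879 to 0.978). Cdh1 was at 162 and 262 CPM, a ratio of 0.621 (0.552 to 0.696), and Cdh2 at 40.3 and 25.8 CPM, a ratio of 1.56 (1.21 to 1.99). Zeb1 had a ratio of 1.13 (0.773 to 1.60). Of all genes, 6.21% were at least 2-fold higher in the large tumor and 17% lower. Twist1 and Zeb2, with 110 and 114 UMIs, had ratios of 3.40 (2.18 to 5.20) and 3.53 (2.29 to 5.33). With 1 tumor of each size, the size cannot be told apart from the mouse, the library and the depth, and the ratios moved with the cells counted. Without clusters 4, 6 and 9 of the large tumor the ratio of Cdh1 was 0.491 (0.424 to 0.565), past the 2-fold limit. That of Vim was 1.31 without these clusters, 0.944 with cluster 8 counted in the medium tumor and 0.710 at a clustering resolution of 1.2.

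For Cdh1, Vim, Fn1, Zeb1, Zeb2 and Cdh2, the most like genes over all 14 clusters of the medium tumor were ranked by Pearson's r of log2(CPM + 10). These are descriptions over 14 clusters of 1 library preparation. For Cdh1 they were Dsg2 (0.968), Krtcap3 (0.968), Tm2d3 (0.955), Hsd17b10 (0.948) and Pick1 (0.938), of which Dsg2, Krtcap3 and Pick1 had 0.913, 0.889 and 0.935 over the 10 clusters of the large tumor and Tm2d3 and Hsd17b10 0.103 and 0.0054. For Vim they were Soat1 (0.879), Ppp1r18 (0.877), Brk1, Got1 and Mtdh, with 0.770, 0.883, 0.611, 0.327 and 0.438 in the large tumor, and the r of Vim with Cdh1 in the medium tumor was -0.629. For Zeb2 they were Trf (0.954), Emilin2, Il6, Lsp1 and Gpsm3, with 0.546, 0.862, 0.743, 0.907 and 0.779 in the large tumor.

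For Zeb1 the most like genes were Yaf2 (0.903), Lamb1 (0.902), Ppfibp1, Igfbp7 and Fkbp1a, and for Cdh2 Scoc (0.943), Zfp697 (0.942), Cfl2, Ndrg2 and Igfbp4. In the large tumor and in the same order, the first 5 genes had -0.338, 0.267, 0.841, 0.627 and 0.625 with Zeb1, and the other 5 had 0.492, 0.881, 0.668, 0.194 and 0.787 with Cdh2. For Fn1 they were Cltc (0.895), Sidt2, Fam76a, Cmtm3 and Gabarap, with -0.364, -0.370, 0.519, 0.715 and 0.777 in the large tumor.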

How the data were processed

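Per the labels and the study's methods, the authors aligned the reads and deposited UMI counts per gene and cell barcode made with Cell Ranger (mm10 in the submitters' processing notes; the version, annotation and barcode filter are not given in the sources used here), without normalization and with the 4 technical replicates of a tumor in 1 table. Of the symbols, 39 named more than 1 row, none of them 1 of the 9 genes. The 9 genes, the lists and the naming thresholds were chosen with earlier results of these data known.

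Each tumor was clustered with Seurat 5.3.0 in R 4.3.3 (log normalization to 10000, 2000 variable genes by vst without the 9 genes, 10 principal components, resolution 0.8). Without that exclusion 7 of them in the medium and 3 in the large tumor would have been among the variable genes. A marker counted for a cluster if seen in 10% of its cells at 25% or more of its highest cluster level. A class needed 3 markers, and a cluster with 60% of another class's markers stayed unnamed. Scrublet in scanpy 1.11.5 called 0 cells of the medium and 9 of the large tumor, and no cell was removed.

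Levels are summed UMIs per 1000000 with exact Poisson intervals, ratios have exact conditional binomial intervals and shares exact binomial ones, all at 95%. Co-detection used cells thinned to 2500 UMIs (500 between tumors, 1000 as an alternative), which no cell fell short of. Ratios over all genes had 1 UMI added to each sum. Ratios within clusters are Mantel-Haenszel rate ratios without intervals. They are given only for the 9 genes and the lists, so no value over all genes stands beside them. Intervals of co-detection ratios treat the expected number as fixed, and for a rare gene they can pass the highest ratio possible. Named genes are the 9, up to 3 per list with the largest ratio between Vim-only and Cdh1-only cells (at least 50 UMIs), and the 5 most like by Pearson's r (at least 200 UMIs). A count of 0 allows 3 counts. The steps (Python 3.11.15, numpy 2.4.6, scipy 1.17.1) were tested on simulated data. The alleles of the mouse model are not reported here. Gene positions are from GENCODE M21 of GRCm38.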

Additional observations from a re-analysis of the deposited data

How the results depend on the processing

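No paired analysis was possible because the technical replicates of a tumor share 1 table and each group is 1 tumor, and for the same reason no replicate could be left out. Of 67 alternative values of the 8 main results, 35 lay within the interval of the reported value, 30 moved outside it and 2 were on the other side of 1 from a reported interval that excludes 1. These 2 were the co-detection ratio of Cdh1 and Vim, at 1.00 (0.954 to 1.05) without thinning and 1.07 (0.990 to 1.16) with at least 2 UMIs in place of 0.880, with intervals that span 1, and the cause was not tested. The share with both was then 44.1% and 24.0%, and 6.51% at 1000 UMIs. The share with any EMT factor was 16.7% not thinned, 2.99% at 1000 UMIs, 7.60% at resolution 0.4, 7.73% with 20 components and 8.02% with classes from each cell's own markers.

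The epithelial-like to other ratio of Vim was 0.613 at resolution 0.4, 0.609 with 20 components, 0.532 by own markers and 0.482 without the highest 5% of Scrublet scores, and that of Cdh1 4.63 by own markers and 4.03 without those scores. The Zeb1 ratio of Vim-only to Cdh1-only cells was 3.42 at resolution 0.4, 3.42 with 20 components, 3.45 by own markers and 4.33 not thinned. The large to medium ratio of Vim was 0.943, 0.710, 0.945 and 0.918 at resolution 0.4, at 1.2, with 20 components and by own markers, in place of 1.055 (0.999 to 1.11). These 4 values and that with cluster 8 counted lay below 1 with intervals that exclude it. The same ratio of Cdh1 was 0.754 at 1.2 and 0.701 by own markers. At resolution 1.2 the epithelial-like class of the large tumor held 955 cells and not 1219.

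Chosen after seeing the data, counting cluster 8 as epithelial-like gave 0.616 for Vim to other cells, 7.57% for any factor, 3.42 for Zeb1 and 0.944 for Vim between tumors, and turned the epithelial-like to other ratio of Cdh2 from 0.379 to 1.64. Without clusters 4, 6 and 9 of the large tumor, Vim had 1.31 and Cdh1 0.491. The depth of the large tumor, with 4 UMIs each of Snai1 and Snai2 over all epithelial-like cells, limits what can be said of these genes there.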

Other observations

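Other cadherins also differed between the cell groups. Cdh11, known from fibroblasts and osteoblasts, was at 120.4 CPM (95% Poisson interval 87.1 to 162) in cluster 11 and 53.6 CPM in cluster 10 of the medium tumor, and at 235 CPM (134 to 381) in the fibroblast-like cluster of the large tumor. Cdh17, the liver-intestine cadherin, was at 911 CPM (782 to 1055) and 586 CPM (479 to 710) in clusters 4 and 6 of the large tumor, which are led by intestinal genes, and at 30.8 to 37.5 CPM in clusters 5 and 1. In the medium tumor it was highest in cluster 2, at 146 CPM (128 to 165). Cdh6 was at 20.5 CPM (14.4 to 28.3) in cluster 8 of the medium tumor and 6.91 CPM in cluster 4. Cdh13 was found in all epithelial-like clusters of that tumor, between 80.1 and 193 CPM.

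Cdh5, the vascular endothelial cadherin and 1 of the 11 markers that named the endothelial-like clusters, was at 587 CPM (495 to 692) in the endothelial-like cluster of the medium tumor, and was also seen at 27.1 CPM (20.2 to 35.7) in cluster 4 and 28.3 CPM (21.1 to 37.2) in cluster 8, from 51 UMIs in 31 and 34 cells. These levels are 4.62% and 4.82% of the endothelial-like level. Except for Flt1, the other endothelial markers had lower shares there. Eng was at 1.42% and 1.34% in clusters 4 and 8, and Pecam1 at 0.954% and 2.27%. Plvap was at 0.280% in cluster 4 with 0 UMIs in cluster 8, Emcn had 0 UMIs in both, and Cldn5 was at 0.188% and 0.0979%. Flt1 was at 10.3% and 5.55% in these clusters and between 2.59% and 8.42% in the other epithelial-like clusters. Cdh5 was also seen in cluster 3, at 12.9 CPM from 45 UMIs in 21 cells, which is 2.19% of the endothelial-like level. Clusters 1, 2 and 7 had 19, 5 and 1 Cdh5 UMIs, and clusters 5 and 6 had 0.

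Cluster 12 of the medium tumor (65 cells) had both epithelial and myeloid RNA, with 230 CPM of Cdh1 (181 to 287), 655 CPM of Vim and 84.6 CPM of Zeb2. Its median Scrublet score was 0.147, against 0.0275 to 0.0765 in the other clusters, and 60% of its cells were epithelial by their own markers.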
